A study of Mus musculus with 29 samples.

Results

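The regions described here are stretches of open chromatin in mouse embryonic cortex whose mean accessibility differed between Hom and WT libraries while the Het mean stayed close to WT. They were chosen from the deposited values themselves. A region was taken when its mean level over all 17 embryonic libraries was from 2 to under 20 CPM (reads in the region, scaled to the size of the library), when the Hom mean differed from the WT mean by at least 0.3 log2 (1.23-fold), and when the Het mean differed from WT by less than 0.1 log2 (1.07-fold) in either direction. Of 205908 regions in the embryonic table, 81607 lay in that range of levels, and 605 of these met the rule, 0.741% of the range. Of the 605 regions, 260 were higher in Hom (rises) and 345 were lower in Hom (falls). The Hom and Het differences, the mean level and everything that follows directly from them therefore describe the choice and are given without a test.

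Accessibility was measured by ATAC-seq, in which a transposase inserts sequencing adapters into open DNA, in cortex of E14.5 embryos from a Myt1l knockout line. There were 6 WT, 5 Het and 6 Hom libraries, where Het carried the mutation on 1 allele and Hom on 2 alleles. Litter 1 gave 4 WT, 3 Het and 4 Hom libraries, and litter 2 gave 2 of each genotype. The sources used here give no treatment and no embryo sex, do not say how the allele was made, and do not say that each library is a separate embryo, so any p-value measures the spread between these libraries, which may be technical.

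Myt1l encodes a zinc finger transcription factor that is made mainly by neurons from the time they stop dividing. It is known for repressing genes of other cell lineages and for helping neurons to mature, and its loss of 1 copy in people causes a neurodevelopmental syndrome. Cortex at this stage of gestation holds dividing progenitor cells beside newly formed neurons. Accessible regions outside promoters often act as enhancers, short stretches where transcription factors bind and raise the activity of a gene. In tissue made of several cell types, a lower value can reflect fewer cells with the region open or less accessibility in each cell, and these cannot be told apart.

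The deposited table numbers the regions and pairs them with no gene or position. For this reason 2 rises and 2 falls are named by their deposited identifiers, and the genes, the sequences under the regions, the markers of cortical cells and the Myt1l locus as a check of the genotype labels were not analysed here. Correlations between libraries of 1 genotype ran from 0.941 to 0.977 over the log2 values of all regions, and 0 pairs of libraries were identical. The values had been adjusted by the authors in a way that removes variation within groups, so these correlations may be too high. The CPM of a library summed to between 988155 and 1045790 over the table. How deeply each library was sequenced is unknown, and intervals for counting error are therefore left out.

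Rises and falls were small in size and similar to each other. The rises had a median Hom difference of 0.34 log2, which is 1.27-fold, and the middle of their range ran from 0.32 to 0.37 log2 (quartiles). The falls had a median of -0.34 log2, with quartiles of -0.38 and -0.32 log2. Differences over 0.5 log2 were rare, at 5 of 260 rises and 9 of 345 falls, and 222 rises and 285 falls differed by under 0.4 log2. Over all 81607 regions of the same range of levels the median Hom difference was -0.01 log2. The Het difference had a median of 0.04 log2 over the rises and -0.03 log2 over the falls. It had the same sign as the Hom difference at 179 rises and 232 falls, and the opposite sign at 81 and 113. Both differences share the WT libraries, and the part of this in the signs was not tested.

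**Figure D1:**
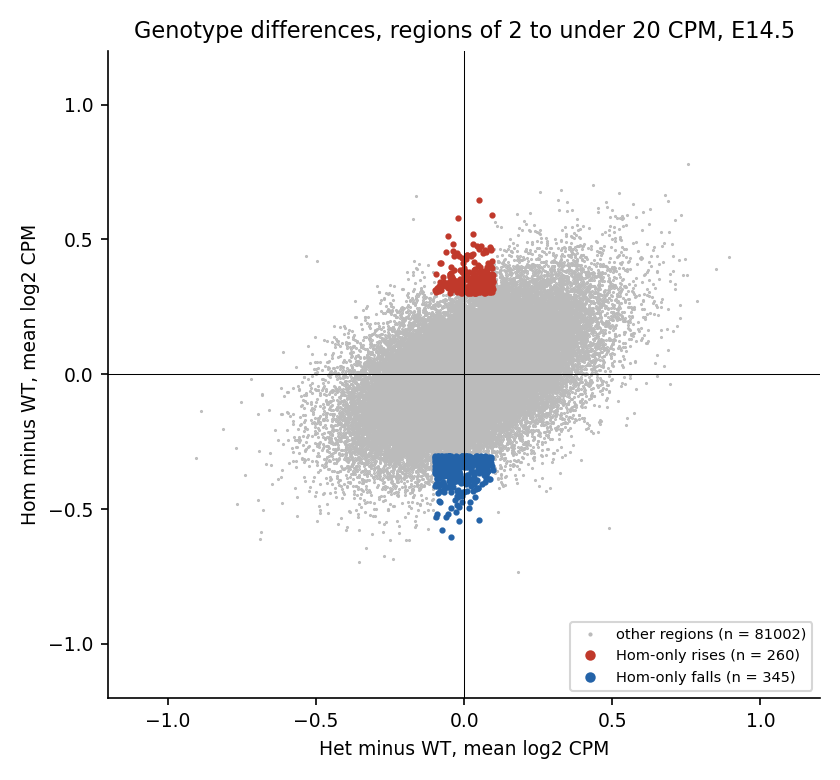
Mean difference from WT in log2 CPM of Het (horizontal axis) and Hom (vertical axis) libraries for each region with a mean level from 2 to under 20 CPM; 7 regions lie outside the axes. The 260 rises (red) and 345 falls (blue) fill the 2 boxes that the rule sets, and grey points are the other regions of that range; both axes share the WT libraries.

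Many members lay close to the limits of the rule. The smallest rise taken was 0.3002 log2 and the largest difference left out for size was 0.2997 log2, while the smallest fall taken was -0.3013 log2 and the nearest one left out was -0.2998 log2. On the Het side, the rises reached 0.0989 log2 with the nearest region left out at 0.1003 log2, and the falls reached 0.0998 log2 with the nearest left out at 0.1002 log2 (absolute values). The rule took 260 of the 1707 regions in the range that were higher in Hom by at least 0.3 log2 (15.2%) and 345 of the 1332 that were lower by as much (25.9%). The same rule with Hom and Het exchanged took 921 rises and 722 falls, so the regions chosen for Hom, with 6 libraries, were fewer in both directions than those chosen for Het, with 5. The difference between these counts was not tested.

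The members were among the less open regions of the range. The median level was 2.57 CPM for the rises and 2.56 CPM for the falls, against 4.59 CPM for the whole range. Levels under 3 CPM were found in 179 rises (68.8%) and 235 falls (68.1%), against 26.6% of the range. From 2 to under 2.5 CPM the rule took 0.940% of regions as rises and 1.29% as falls, and from 5 to under 10 CPM it took 0.0603% and 0.0818%. Only 2 rises and 0 falls lay from 10 to under 20 CPM. The limit of 2 CPM cut through a steep gradient: 2894 rises and 3080 falls met both difference criteria below it, the nearest at 1.9988 and 1.9957 CPM, against members that began at 2.0048 and 2.0047 CPM. At 20 CPM or above, 0 regions met them.

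Regions of low level also varied more between libraries of the same genotype. Within genotypes, the standard deviation (SD) pooled over the 3 groups had a median of 0.25 log2 in the rises and 0.25 log2 in the falls, against 0.18 log2 over the range. Compared at the same level the gap was smaller. From 2 to under 2.5 CPM the median SD was 0.28 log2 in rises, 0.29 log2 in falls and 0.27 log2 in all regions, and from 3 to under 5 CPM it was 0.20, 0.22 and 0.21 log2. Level and spread thus moved together with membership, and their part in the differences was not tested.

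**Figure D2:**
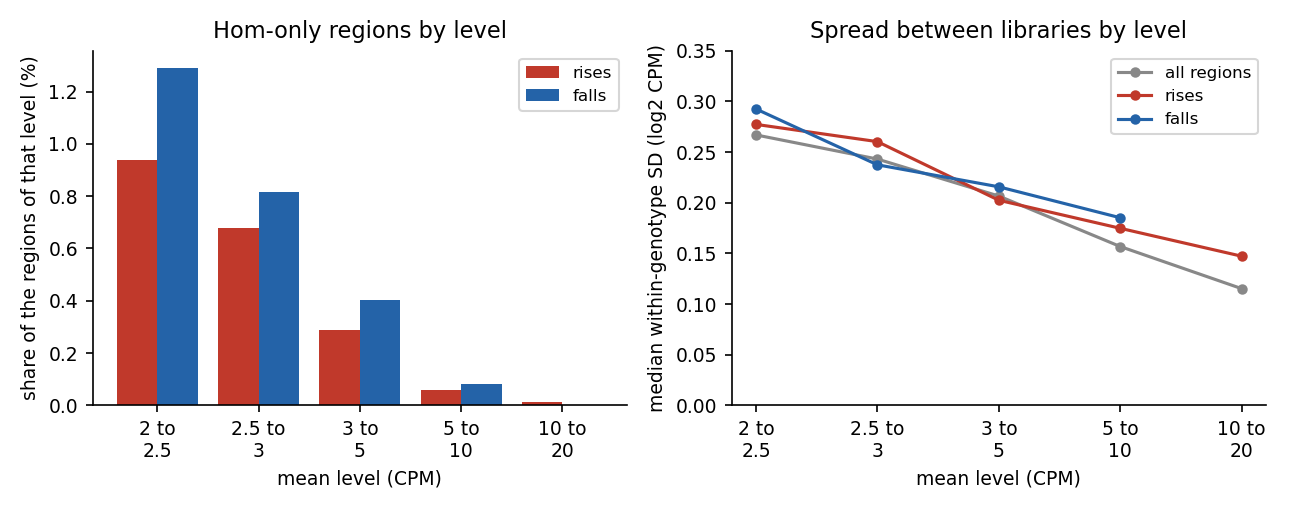
Left, share of all regions of a level class (mean CPM over 17 libraries) that are rises (red) or falls (blue). Right, median within-genotype SD in log2 CPM of all regions (grey), rises and falls in the same classes; the share taken and the spread both go down with level, from 0.27 log2 at 2 to under 2.5 CPM to 0.12 log2 at 10 to under 20 CPM for all regions.

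The 4 named regions were the 2 rises and 2 falls with the largest mean Hom difference among members whose Hom and WT libraries did not overlap. At all_e14_peak_111121, a rise, the WT libraries measured 1.70 to 2.91 CPM (median 2.60) and the Hom libraries 3.24 to 4.26 CPM (median 3.70). The 5 Het libraries measured 2.56, 2.69, 2.53, 1.87 and 2.63 CPM. All 6 Hom libraries were higher than every WT and Het library, and the Het libraries lay within the span of the WT libraries. The means were 2.51 ± 0.434 CPM in WT, 2.46 ± 0.331 CPM in Het and 3.71 ± 0.431 CPM in Hom (SD, n = 6, 5 and 6), a Hom difference of 0.58 log2 (SE 0.13).

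At all_e14_peak_217127, also a rise, the WT libraries were tightly grouped at 2.08 to 2.51 CPM (median 2.24). The Hom libraries measured 2.84 to 3.66 CPM (median 2.97), all above WT. The Het libraries, at 2.86, 1.82, 2.43, 1.82 and 2.23 CPM, spread more widely than WT, and the highest of them lay among the Hom libraries. The Het mean near WT, a difference of -0.04 log2 (SE 0.11), thus combined libraries above and below the WT values. The Hom difference was 0.46 log2 (SE 0.11). Without Het replicate 27 the Het difference was -0.13 log2, which would have kept the region out of the list.

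At all_e14_peak_21105, a fall, the WT libraries measured 2.74 to 3.76 CPM (median 2.93) and the Hom libraries 1.90 to 2.48 CPM (median 2.07). All 6 Hom libraries were lower than all WT libraries. The Het libraries measured 2.21, 2.84, 3.34, 2.89 and 3.45 CPM, so that 1 of them lay within the Hom span and the others within the WT span. The Hom difference was -0.52 log2 (SE 0.11) and the Het difference -0.05 log2 (SE 0.11). Without Het replicate 34 or 64 the Het difference was -0.103 or -0.114 log2, outside the rule.

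At all_e14_peak_37496, the second named fall, the Hom libraries measured 1.67 to 2.38 CPM (median 1.99) and the WT libraries 2.41 to 3.85 CPM (median 2.61). The groups did not overlap, but the highest Hom value of 2.38 CPM lay close to the lowest WT value of 2.41 CPM. The Het libraries measured 2.51, 4.26, 2.79, 2.48 and 2.38 CPM, of which 4.26 CPM stood far above the others. The Hom difference was -0.47 log2 (SE 0.15) and the Het difference 0.02 log2 (SE 0.16). Without that Het library, replicate 31, the Het difference was -0.13 log2, again outside the rule. Of the 4 named regions, all_e14_peak_111121 alone met the Het limit whichever Het library was left out, with values from -0.06 to 0.07 log2. The Het difference also rests on the WT libraries. Without WT replicate 57, all_e14_peak_111121 too fell outside the Het limit. None of the 4 named regions stayed a member in all 17 cases with a single library left out.

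**Figure D3:**
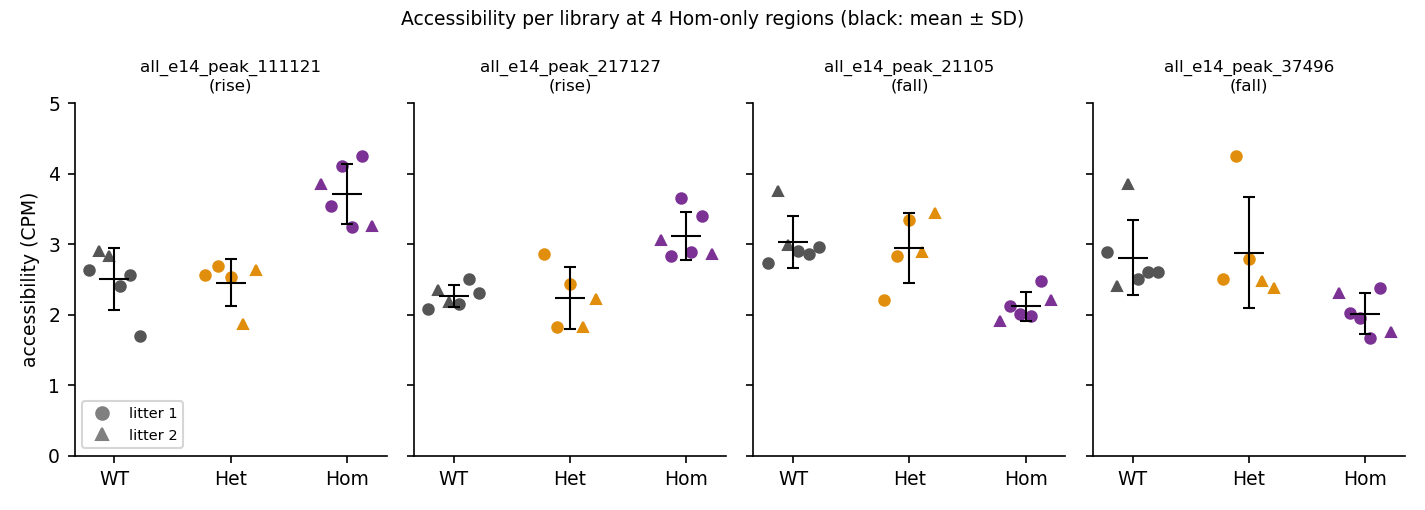
Accessibility in CPM of each library at the 4 named regions, by genotype; circles are litter 1, triangles litter 2, and black marks the mean ± SD (n = 6 WT, 5 Het, 6 Hom). Hom and WT libraries do not overlap in any of the 4, and single Het libraries reach the Hom values in all but all_e14_peak_111121.

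Such separation was the exception among the members. Hom and WT libraries did not overlap at 13 of 260 rises (5%) and 16 of 345 falls (4.64%). Over all 81607 regions of the range, 0.255% had all 6 Hom libraries above all 6 WT libraries and 0.325% had them below. The rule fixed the mean difference, so these shares are given only as a description. At the remaining members at least 1 Hom library lay among the WT libraries. A weaker form of order was common: all 6 Hom libraries lay above the WT mean at 179 rises and below it at 186 falls, against 6.09% and 6.29% of the range, while at 2 falls only 3 of 6 Hom libraries did.

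Hom stood apart from both other genotypes at 9 members, 5 rises and 4 falls. Over the range, 0.0282% of regions had all 6 Hom libraries above every WT and Het library and 0.0172% had them below. These 9 members spanned mean levels from 2.51 to 13.1 CPM, and their differences ran from 0.30 to 0.58 log2 in rises and from 0.31 to 0.43 log2 in falls (absolute values). The most open of the 5 rises measured 10.9 to 13.5 CPM in WT (median 11.8), 11.6 to 13.6 CPM in Het (median 12.0) and 13.8 to 16.1 CPM in Hom (median 14.8). The most open of the 4 falls measured 8.11 to 10.6 CPM in WT (median 8.57), 8.06 to 9.82 CPM in Het (median 8.87) and 6.38 to 7.80 CPM in Hom (median 7.31), and it was also the most open of all falls. In both, the Het libraries covered nearly the same span as WT and the Hom libraries began just beyond it.

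The rise with the smallest spread of all showed the pattern most tightly. Its WT libraries measured 2.63 to 3.36 CPM (median 3.01), its Het libraries 2.99 to 3.19 CPM (median 3.19) and its Hom libraries 3.86 to 4.46 CPM (median 4.08), with a pooled SD of 0.09 log2 and a Hom difference of 0.45 log2. The largest differences were less orderly. The largest rise, 0.64 log2, had WT libraries from 1.504 to 2.94 CPM and Hom libraries from 2.08 to 4.31 CPM, which overlapped, with Het libraries from 1.37 to 3.29 CPM. The largest fall, -0.60 log2, had WT libraries from 2.01 to 3.26 CPM and Hom libraries from 1.42 to 2.01 CPM, which met at their ends. The most open rise, at a mean of 19.5 CPM, measured 14.2 to 20.9 CPM in WT and 18.8 to 26.7 CPM in Hom and overlapped as well.

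Averaged over the members, each Hom library departed from WT by about the group difference. The rule chose regions by the mean of these 6 libraries, so averages over many chosen regions largely follow from the choice. The mean departure from WT over the 260 rises ran from 0.32 log2 in Hom replicate 61 to 0.37 log2 in Hom replicate 54, and over the 345 falls from -0.29 log2 in Hom replicate 61 to -0.38 log2 in Hom replicates 6 and 65. Each Hom library lay above the WT mean at 240 to 250 of the 260 rises and below it at 307 to 319 of the 345 falls. These counts largely follow from the rule as well. Hom replicate 61 was nearest to WT in both directions. Over all regions of the range, the median departure ran from -0.01 log2 in Hom replicate 40 to 0.01 log2 in Hom replicate 54. The Het libraries ran from 0.01 to 0.06 log2 over the rises and from -0.05 to 0.01 log2 over the falls, and the WT libraries from -0.03 to 0.02 and from -0.03 to 0.03 log2. Single Het libraries lay above the WT mean at 144 to 153 of the 260 rises and below it at 158 to 202 of the 345 falls.

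**Figure D4:**
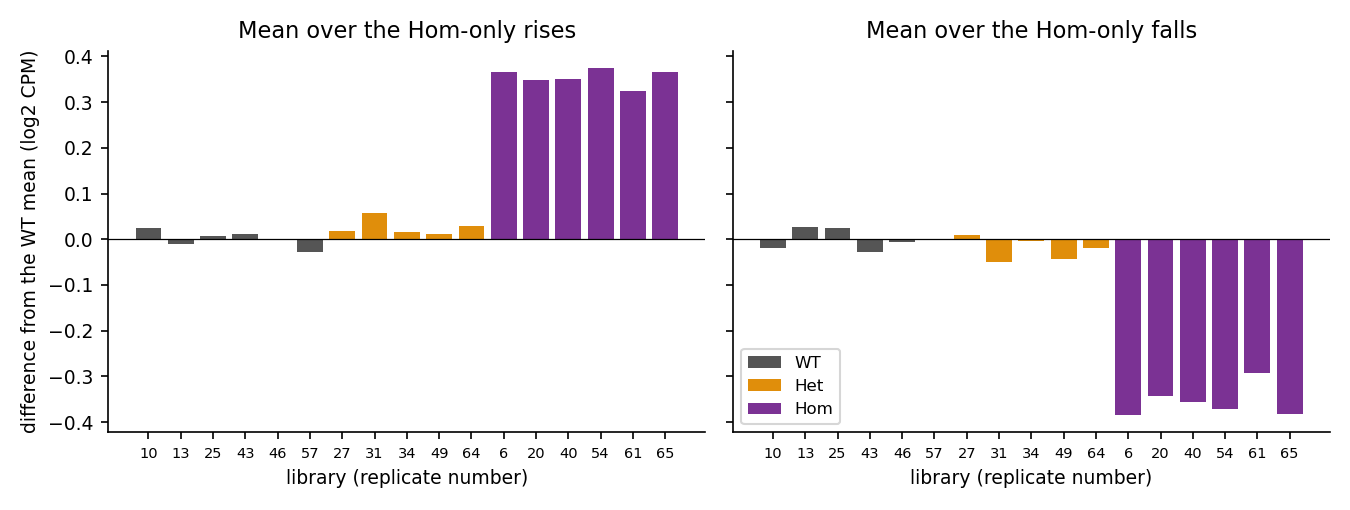
Mean difference from the WT mean in log2 CPM over the 260 rises (left) and the 345 falls (right) for each library, in order WT, Het, Hom. The 6 Hom bars lie between 0.32 and 0.37 log2 and between -0.38 and -0.29 log2. The rule chose regions by the mean of these libraries, so an even share over many regions is largely set by the choice.

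A Het mean within 0.1 log2 of WT did not place the Het level precisely. In the limma fit over the 138760 regions whose mean level reached 1 CPM, the standard error of the Het difference had a median of 0.15 log2 in the rises and 0.15 log2 in the falls. It was above the limit of 0.1 log2 at 253 of 260 rises and 339 of 345 falls. At these regions the Het value was therefore known less precisely than the rule reads it, and "only in Hom" names the selection and is not a tested difference between the mutants. The directly subtracted Hom and Het means differed by a median of 0.32 log2 in rises and -0.32 log2 in falls, of which the rule alone fixes at least 0.2 log2.

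Across the whole table, 0 of 138760 regions differed between Hom and WT at a Benjamini-Hochberg adjusted p under 0.05 (0% called, limma), and 12926 (9.32%) had an unadjusted p under 0.05. No member was therefore called. The smallest adjusted p among the members was 0.175 in both directions. For Hom against Het, 29 regions (0.0209%) were called by limma and 0 of them were members; 15692 regions (11.3%), 156 rises and 214 falls among them, had an unadjusted p under 0.05. For Het against WT, 1691 regions (1.22%) were called and 0 were members, as the rule requires small Het differences; 22487 regions (16.2%) and 0 members had an unadjusted p under 0.05. Because the rule used these contrasts, nothing is read from the members' counts.

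The difference between litters was not used by the rule. The numbers of WT and Hom libraries per litter make it uncorrelated with the Hom difference where libraries vary equally. Uncorrelated values need not be independent. The question was whether the members differed between litters in level, or in the size of their Hom difference. In level, 0 of 138760 regions (0% called) and 0 members differed between litter 2 and litter 1 in limma with genotype in the model; 310 regions (0.223%) had an unadjusted p under 0.05, among them 0 rises and 1 fall. Of the litter contrast, 64.99% lay in the 3 directions of variation that the authors' adjustment had all but removed, so this test ran on what was left. With those directions as covariates, 8 regions of the table (0.00577%) and 0 members were called. An unadjusted p under 0.05 was found at 33 of 605 members (5.45%) and at 8017 regions of the table (5.78%), which are similar shares.

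For the size of the Hom difference, the members' shares were close to those of the table. The Hom difference in litter 2 minus that in litter 1 was called at 1 of 138760 regions (0.000721%), which was no member. At an unadjusted p under 0.05 it stood at 12 of 260 rises (4.62%) and 23 of 345 falls (6.67%), near the 5.86% of all tested regions. The median of this contrast was 0.01 log2 over the rises and -0.08 log2 over the falls, against 0.00203 log2 over the table, with a median standard error of 0.31 and 0.32 log2 per region. Falls were larger in litter 2 at 207 regions and in litter 1 at 138, and rises at 131 and 129. Litter 2 rests on 2 libraries per genotype.

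Within litters the Hom difference kept its direction at most members. The rises had a median of 0.35 log2 in litter 1 (4 Hom against 4 WT libraries) and 0.37 log2 in litter 2 (2 against 2). The falls had -0.32 and -0.40 log2. The sign turned in litter 2 at 12 rises and 14 falls, and in litter 1 at 2 rises and 1 fall. In both litters taken alone the difference was at least 0.3 log2 at 73 rises and 94 falls. Of the named regions, all_e14_peak_111121 differed most between litters among the rises, with 0.72 log2 in litter 1 and 0.30 log2 in litter 2, while all_e14_peak_217127 had 0.49 and 0.38 log2. The falls all_e14_peak_21105 and all_e14_peak_37496 had -0.42 and -0.41 log2 in litter 1 and -0.71 and -0.60 log2 in litter 2. Both litters were used by the rule, so these values describe how the chosen difference was shared.

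**Figure D5:**
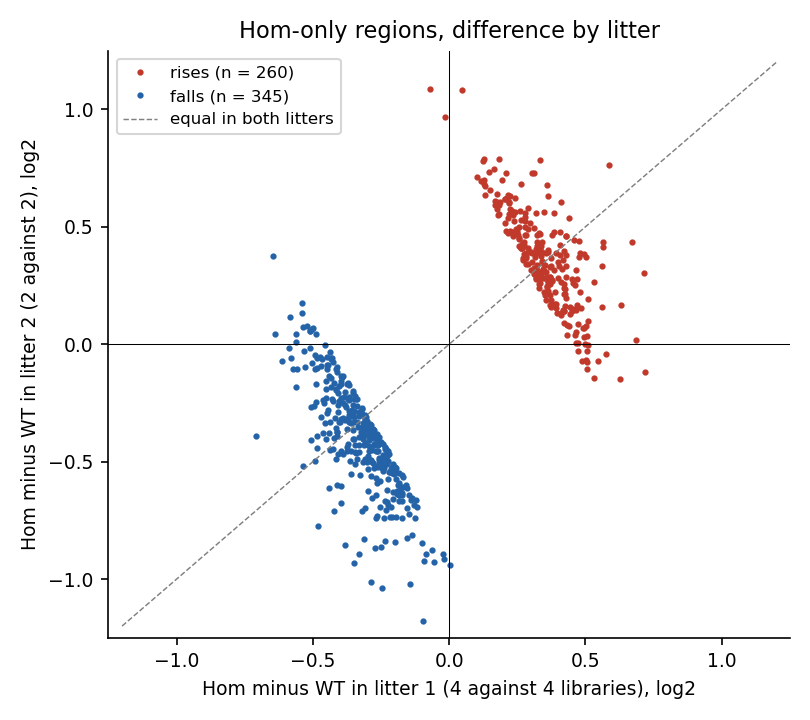
Hom minus WT in log2 CPM within litter 1 (horizontal) and within litter 2 (vertical) for each of the 260 rises (red) and 345 falls (blue), with the line of equal differences. Points lie along a falling edge because the rule fixes the weighted mean of both litters; 12 rises and 14 falls cross 0 in litter 2.

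The spread of the libraries differed with the direction. Among the rises the WT libraries had a median SD of 0.25 log2, the Het libraries 0.23 log2 and the Hom libraries 0.21 log2. Among the falls the Hom libraries had the largest, 0.27 log2, against 0.22 log2 in WT and 0.21 log2 in Het. Over the range the medians were 0.17, 0.17 and 0.18 log2. The WT spread exceeded the Hom spread at 168 of 260 rises (64.6%), and the Hom spread exceeded the WT spread at 240 of 345 falls (69.6%), against 48.7% and 51.3% of the range. Between WT and Hom, the genotype with the lower mean accessibility thus had the larger median SD on the log2 scale in both lists, and the part of the level in this was not tested.

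The members were scattered along the numbering. In 24 consecutive blocks of 10000 region numbers, each block held 5 to 17 rises and 7 to 26 falls, which is 0.155% to 0.493% and 0.232% to 0.702% of its regions in the range of levels. The rises ran from number 222 to 235721 with a median gap of 604 numbers, and the falls from 1552 to 235238 with a median gap of 429. Next-numbered members of the same direction were found at 0 rises and 4 falls, the falls forming 2 pairs with Hom differences of -0.33 and -0.37 log2 in one and -0.33 and -0.34 log2 in the other. A rise and a fall carried consecutive numbers in 2 cases.

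The regions next to the members by number split between higher and lower about as the whole range did. Of 189 regions of the range numbered next to a rise, 92 (48.7%) were higher in Hom, against 47.9% of the range, with a median difference of -0.00215 log2. Of 254 regions next to a fall, 137 (53.9%) were lower in Hom, against 52.1% of the range, with a median of -0.01 log2. These values share the libraries of the rule and are a description. Whether consecutive numbers are neighbours on a chromosome is not stated in the sources used here; departures of libraries from their genotype mean correlated at a mean r of 0.03 between consecutive numbers and 0.00482 between numbers 1000 apart (31308 and 28616 pairs, each over the same 17 libraries).

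Shared variation within genotypes was described on values from which the authors' adjustment had already taken such variation: 3 directions among the libraries had a root mean square of 0.0253 to 0.0279 log2, against 0.36 log2 in the next. Low correlations between members were therefore largely set beforehand, and nothing is read from them. In what was left, the departures of libraries from their genotype mean correlated between pairs of rises at a mean r of 7.49e-06 and between pairs of falls at 0.00882, against 0.00284 between all regions of the range. The strongest shared direction held 12.4% of this variation in the rises, 13.2% in the falls and 10.7% in the range.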

How the data were processed

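The authors deposited log2 CPM per numbered region after an RUVr adjustment, as the table is titled; RUVr estimates unwanted variation from residuals and removes it. Per the submitters' processing notes, reads were processed against mm10, with Trimmomatic, Bowtie2, STAR and HTSeq named without role or version; no source read here names the peak caller or the number of factors. The adjustment keeps group differences and removes variation within groups, so the spread between libraries may be too small. Groups and litters came from the labels, and 0 value columns were left unmapped. The adult table numbers its regions separately and was not used here. CPM is 2 to the power of the deposited log2 value. Standard errors at named regions come from the SD pooled over 3 genotypes.

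Tests were two-sided, with limma 3.58.1 in R 4.3.3 (empirical Bayes with trend) over regions of at least 1 CPM and Benjamini-Hochberg adjustment; the fits were tested on simulated data. The named regions were the 2 rises and 2 falls of largest Hom difference among members with non-overlapping Hom and WT libraries. The members, rule and tests were chosen with earlier results of these data known.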

Additional observations from a re-analysis of the deposited data

Results flagged for a closer look

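At the 4 named regions, and for the mean over the rises and over the falls, 18 groups of libraries were checked for 1 library far from the others. A library stood apart in 4 of them. In groups not picked by their values, chance would flag about 1 in 20, or 0.9. The named regions were picked by the values of these same libraries. That rate therefore does not hold for them, and no excess is read from the count. At all_e14_peak_21105 WT replicate 13 measured 3.76 CPM, against 2.74 to 2.99 CPM in the other WT libraries. At all_e14_peak_37496 WT replicate 25 measured 3.85 CPM, against 2.41 to 2.89 CPM, and Het replicate 31 measured 4.26 CPM, against 2.38 to 2.79 CPM. At all_e14_peak_111121 Het replicate 49 measured 1.87 CPM, against 2.53 to 2.69 CPM in the other Het libraries. Without Het replicate 31 the Het difference at all_e14_peak_37496 went from 0.02 to -0.13 log2, and without Het replicate 49 that at all_e14_peak_111121 went from -0.02 to 0.07 log2. In both falls the outlying WT library was the highest of its group and belonged to litter 2. Without it the Hom difference was -0.45 log2 at all_e14_peak_21105 and -0.38 log2 at all_e14_peak_37496. The Het difference shares the WT libraries and moved upward by as much. At all_e14_peak_37496 this took the Het difference above the limit of 0.1 log2, outside the rule.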

How the results depend on the processing

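Adding 0.5 to CPM before the log left 114 rises and 136 falls, of which 93 and 116 were members. Without the lower limit on level there were 3154 rises and 3425 falls, with litter 1 alone 505 and 590 (88 and 102 of them members), and with litter 2 alone 1405 and 1803 (64 and 84 of them members). Group medians in place of means gave 370 and 498, of which 110 and 152 were members. Quantile normalization and a litter block kept 217 and 257 of the rises and 291 and 340 of the falls. Leaving out single libraries gave 255 to 347 rises and 319 to 516 falls; between 138 and 214 of the 260 rises and 212 and 301 of the 345 falls stayed members each time, and 17 rises and 21 falls did so in all 17 cases. Membership of a single region thus depends on single libraries, while the counts of rises and falls stayed within 1.5 times in these cases. At the named regions the Hom difference kept its sign in all settings run. These regions were picked with all Hom libraries on 1 side of all WT libraries. The sign was thus largely fixed by the choice, and nothing is read from it. The difference moved by more than 1 pooled SD only in litter 2 alone (0.30 log2 at all_e14_peak_111121 and -0.71 log2 at all_e14_peak_21105).

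Hom against WT called 0 regions in each setting but 1 region without Hom replicate 54 (range 0 to 1). Het against WT called 526 after quantile normalization, 1058 without the filter on low values, 1122 with litter as a block and 170 with the removed directions as covariates. It called 203 to 2232 without single libraries (203, 756, 791 and 948 when Het library 34, 49, 64 or 31 was dropped, and 456, 769, 818 and 1077 when WT library 25, 10, 43 or 57 was dropped). Hom against Het called 15 without the filter, 18 with the covariates and 10 to 36 without single libraries (10, 11 and 17 when Het library 64, 34 or 31 was dropped, and 10, 18, 18 and 19 when Hom library 54, 6, 20 or 40 was dropped). The litter comparison called 8 with the covariates. The difference of the Hom effect between litters called 3 with 0.5 added, 14 with the covariates and 1 to 14 without single libraries (14, 6 and 2 when Hom library 6, 65 or 20 was dropped, 12 and 4 for Het library 27 or 34, and 9 for WT library 25). The causes of these moves were not tested. In each of these settings in which it was counted, 0 members were called for either litter contrast. No paired analysis was possible because the genotypes share no replicate numbers to match single libraries; litter, which they do share, was fitted as a block, as given above. The depth of the libraries is unknown, which limits any statement on counting error at 2 to 3 CPM.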
